A study of Saccharomyces cerevisiae with 15 samples.

Results

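The genes described here encode the peroxins (PEX genes), which build the peroxisome, and the enzymes that oxidise fatty acids inside it. They were chosen by gene symbol from a list of 34, of which 24 are PEX genes and 10 belong to beta-oxidation, its fatty acid supply and the catalase that works beside it. All 34 were measured, with 37 of the 9275 probe sets tested, because POX1 has 4 probe sets and every other gene 1. The data are log2 signals from 15 Affymetrix arrays of Saccharomyces cerevisiae, 3 for each of 5 groups. All groups were MATa cells of the BY4741 background, grown at 30 °C in uracil-free synthetic medium whose carbon source was 2% galactose, with cultures of 12 ml started at an OD600 of 0.2 and harvested near 1. An Htt25Q group expressed a huntingtin fragment with 25 glutamines, the wild type form, and an Htt103Q group the mutant form with 103 glutamines. The other groups carried a deletion of BNA4, MBF1 or UME1 and, per the study's design text, expressed Htt103Q as well. The labels describe Htt103Q as inducible by galactose and do not state how replicates relate to cultures. The p-values therefore reflect only the variation among arrays within groups, which may be technical. That variation was pooled over all 5 groups, not taken from the groups compared alone.

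Peroxisomes are the only site of beta-oxidation in budding yeast. Matrix enzymes fold in the cytosol and are carried in by the receptors Pex5 and Pex7, which read different targeting signals, dock on Pex13, Pex14 and Pex17, and are then ubiquitinated and pulled out by an ATPase. Oleate induces many of these genes through the transcription factor pair Oaf1 and Pip2 together with Adr1, and glucose represses them. Galactose medium has neither the fatty acid inducer nor glucose.

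The deposited values fell into separate processing sets that could be told by their minimum. Htt25Q, Htt103Q and the ume1 deletion (9 arrays) had a lowest deposited value of 2.06 and the bna4 and mbf1 deletions (6 arrays) 2.02. Comparisons were therefore made within a set, on quantile normalized values. Strain and processing set cannot be told apart where bna4 or mbf1 is set beside the first 3 groups. Deleted genes were low in their own strain, with means of 2.12 for BNA4, 2.09 for MBF1 and 2.34 for UME1. The a-cell gene STE2 stood at 9.09 to 9.95 in all groups and the alpha-cell genes MF(ALPHA)2 at 2.04 to 2.06 and STE3 at 2.27 to 4.08. Of the other alpha-cell genes SAG1 had means of 5.18 to 5.69, and MF(ALPHA)1 had means of 2.27 to 5.64, with 4.23, 5.75 and 6.93 on the Htt25Q arrays, so not all of them were near the lowest value as the MATa label would have it. MET17, deleted in BY4741, lay at 2.04 and the galactose gene GAL1 between 12.9 and 13.1. Of the other genes checked as background alleles of BY4741, LEU2 was low, with means of 2.04 to 2.57. HIS3 was not, with means of 9.29 to 9.86 on its brighter probe set and 6.45 or more on the other. URA3 had means of 8.9 to 10.3. The background alleles were thus not all low, and the reason was not tested. Htt25Q array 1 had an actin signal 2.48 higher at the 3' than the 5' end, a sign of degraded RNA, against −0.33 to 0.31 in the other 14 arrays. The 18S ribosomal RNA control was 10.4 on ume1 array 1, against 5.9 to 8.08 on the rest of the first set. The 18S control stood at 9.66 to 11.1 in the second set. The part of RNA quality in the results was not tested beyond leaving each array out.

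The clearest differences lay between the mbf1 and bna4 deletions. Among the oxidation genes 5 of 10 were lower in mbf1 than in bna4 and 0 were higher, and among the PEX genes 3 of 24 were higher, 3 were lower and 18 did not pass. Passing, or being called, means an adjusted p under 0.05. Of the members' probe sets 29.7% were called, and of all probe sets 10.5%, with 5.74% higher and 4.81% lower. At an unadjusted p under 0.05 the members had 14 of 37 and all probe sets 21.2%. On the same arrays the 18S control was 11.0 to 11.1 in bna4 and 9.66 to 10.7 in mbf1, and its part in the differences was not tested. The 5 lower oxidation genes carry substrate into the peroxisome, reduce it where unsaturated, oxidise it or remove the peroxide formed. The 3 lower peroxins are PEX3, PEX15 and PEX28. The higher genes are the proliferation factors PEX11 and PEX25 and the export ATPase PEX6.

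CTA1 (chromosome IV, 968133 to 969680 in the RefSeq R64 annotation), the peroxisomal catalase, which breaks down the hydrogen peroxide made by acyl-CoA oxidase, differed most of all members. Its log2 signal was 6.82, 6.89 and 6.89 on the 3 bna4 arrays and 4.30, 4.01 and 3.86 on the mbf1 arrays. In the first set it was 3.62, 3.55 and 3.47 in Htt25Q, 3.60, 3.74 and 3.68 in Htt103Q, and 3.47, 4.16 and 4.47 in ume1. The bna4 arrays thus stood above the other 12 arrays with no overlap, and ume1 array 1 lay apart from its 2 replicates. The mbf1 deletion was 7.02-fold lower than bna4, a log2 fold change of −2.81 ± 0.201 (SE, limma adjusted p = 9.28e-06), with a 95% interval of −3.25 to −2.37. The cytosolic catalase CTT1 did not pass in that comparison, at 0.71 (0.312), though its mbf1 arrays all lay above those of bna4.

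Among the core enzymes, POT1 (chromosome IX, 40191 to 41444), the thiolase that ends each round of beta-oxidation and enters through Pex7, had 3.21, 3.34 and 3.28 in bna4 and 2.40, 2.22 and 2.20 in mbf1. The groups did not overlap, and the mbf1 values were close to the lowest value of the arrays. The log2 fold change was −1.0 ± 0.222 (adjusted p = 0.0144; 0.0562 without bna4 array 2). FOX2, the multifunctional enzyme of the middle steps, had 7.15, 6.99 and 6.94 in bna4 and 6.63, 6.43 and 6.81 in mbf1, apart by a small margin. Its change of −0.40 ± 0.115 (0.0471) did not pass when any array other than mbf1 array 3 was left out, with adjusted p of 0.0755 to 0.172. POX1, the acyl-CoA oxidase of the first step, had all 4 probe sets between 2.04 and 2.55 on these 6 arrays, near the lowest value, and differences of −0.03 to 0.06, so a change in it could not be seen.

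The auxiliary enzyme SPS19, a 2,4-dienoyl-CoA reductase for unsaturated fatty acids, had 7.80, 7.80 and 7.62 in bna4 and 6.78, 6.75 and 6.80 in mbf1. The groups were well apart, and the change was −0.96 ± 0.203 (adjusted p = 0.0112). ECI1, the isomerase used for other double bonds, had means of 6.82 and 6.84 with a difference of 0.02 and a 95% interval of −0.20 to 0.24. Its homologue DCI1 had −0.10 at signals of 2.42 to 2.62.

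For the supply of fatty acids, PXA2 (chromosome XI, 86225 to 88786), a subunit of the ABC transporter of long-chain acyl-CoA, had 5.55, 5.55 and 5.53 in bna4 and 5.03, 4.64 and 4.40 in mbf1. The mbf1 arrays spread more widely and all lay below bna4, with a change of −0.85 ± 0.127 (adjusted p = 0.00143). Its partner subunit PXA1 had −0.51 ± 0.183 (0.117), also with no overlap. FAA2, which activates medium-chain fatty acids, had 0.09, with an interval of −0.27 to 0.45.

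**Figure D1:**
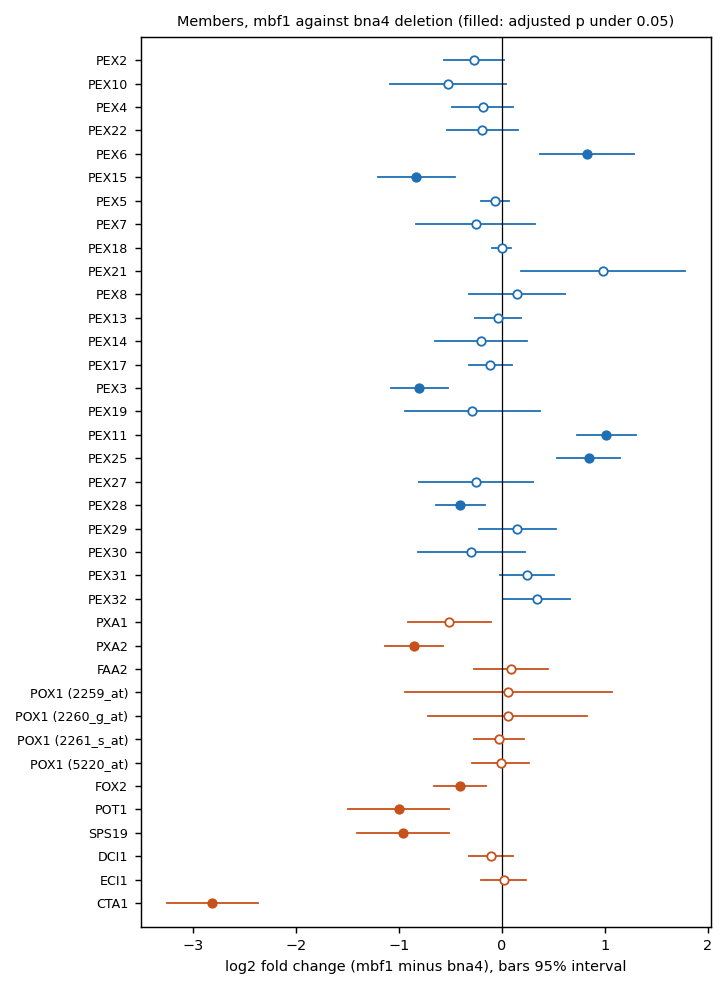
Log2 fold change of the mbf1 against the bna4 deletion (x axis) for each of the 37 probe sets of the members, blue for PEX genes and orange for oxidation genes. Points are differences of group means (n = 3 each), bars are 95% intervals, and filled points have an adjusted p under 0.05; CTA1 lies farthest from 0 at −2.81, and PEX11 is the highest at 1.01.

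PEX11 (chromosome XV, 47933 to 48643), which makes peroxisomes elongate and multiply, went the other way. It had 8.37, 7.97 and 8.20 in bna4 and 9.34, 9.22 and 9.02 in mbf1, with no overlap. That is 2.02-fold, a log2 fold change of 1.01 ± 0.129 (adjusted p = 0.000561). PEX25, a related proliferation factor, had 7.38, 6.91 and 7.14 in bna4 and 7.80, 7.85 and 8.32 in mbf1, higher by 0.84 ± 0.137 (0.00243). The third of this family, PEX27, had −0.25 with an interval that spanned 0.

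The genes for receptor export split. PEX6, the ATPase that pulls receptors out of the membrane, had 6.50, 6.56 and 6.56 in bna4 and 7.42, 7.37 and 7.31 in mbf1, higher by 0.82 ± 0.207 (adjusted p = 0.0272). The replicates were tight, but the adjusted p rose to between 0.055 and 0.0868 on omission of any array of these groups. In Htt25Q, which enters the shared estimate of the spread, PEX6 had 8.28, 7.36 and 7.43. PEX15, its membrane anchor, had 6.08, 5.89 and 5.47 in bna4 and 5.23, 5.09 and 4.63 in mbf1, a log2 fold change of −0.83 ± 0.170 (0.00925). Anchor and ATPase thus moved in opposite directions, though the difference between their changes was not tested.

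PEX3, which receives new membrane proteins at the peroxisome, had 7.11, 7.22 and 7.13 in bna4 and 6.51, 6.52 and 6.02 in mbf1. The groups were apart and the change was −0.80 ± 0.126 (adjusted p = 0.00197). Its partner PEX19, the soluble chaperone of those proteins, had −0.29 with an interval of −0.94 to 0.37. PEX28, of the genes that set peroxisome size and number, had 7.07, 6.97 and 6.93 in bna4 and 6.54, 6.57 and 6.65 in mbf1, lower with −0.40 ± 0.109 (0.0369). It did not pass without any 1 of the 6 arrays (0.0589 to 0.131).

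The import receptors did not pass. PEX5, which carries proteins with the C-terminal signal, had 6.36, 6.40 and 6.36 in bna4 and 6.19, 6.39 and 6.35 in mbf1, a difference of −0.06 with a 95% interval of −0.20 to 0.07. PEX7 had 7.03, 7.50 and 7.14 in bna4 and 6.66, 7.09 and 7.17 in mbf1, −0.25 with an interval of −0.83 to 0.32. PEX21, a co-receptor of Pex7, had 5.58, 5.97 and 5.74 in bna4 and 6.79, 6.49 and 6.96 in mbf1, apart in every array, with 0.98 ± 0.361 (adjusted p = 0.126). It passed only in fits on the second set or on these groups alone (limma adjusted p down to 0.0176). Its counterpart PEX18 lay between 2.12 and 2.18 on these arrays, near the lowest value. The docking and import genes PEX8, PEX13, PEX14 and PEX17 had differences of −0.21 to 0.15, and the ubiquitin genes PEX2, PEX10, PEX4 and PEX22 −0.52 to −0.19, with 0 called.

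Counted by arrays that did not overlap, 20 of the 37 members' probe sets were apart, 6 higher and 14 lower, or 54.1% against 37.3% of all probe sets (17.4% higher and 19.9% lower). The oxidation genes had 0 apart higher and 7 apart lower of 13 probe sets, and the PEX genes 6 higher and 7 lower of 24. The median change was −0.15 for PEX genes and −0.46 over the 10 oxidation genes with the POX1 probe sets averaged, or −0.10 over their 13 probe sets, against 0.00 for all probe sets. Of the 26 members' probe sets not called, 23 had a 95% interval within 1 log2 unit of 0.

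**Figure D2:**
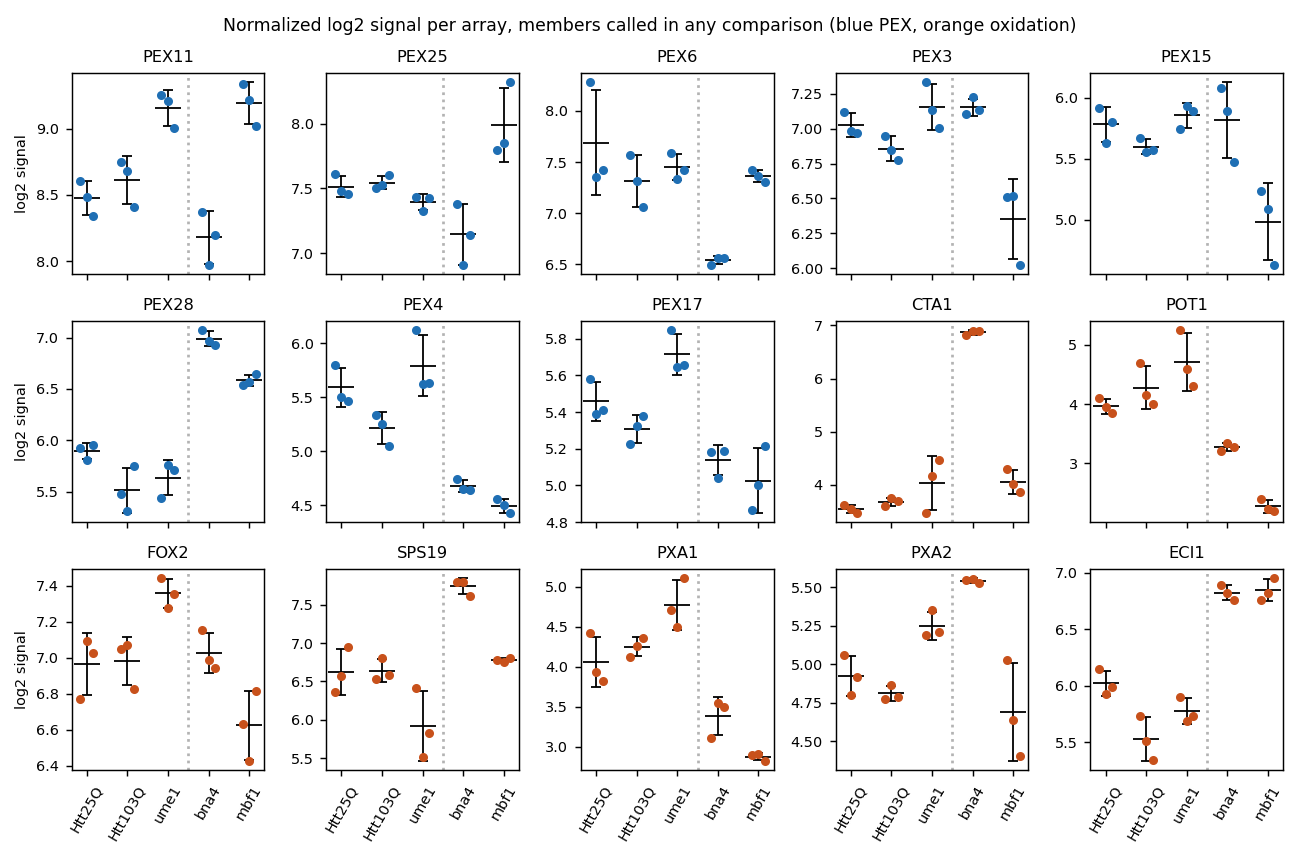
Normalized log2 signal (y axis, its own range per panel) of the 15 members called in any comparison, in the 5 groups along the x axis. Points are arrays, bars the mean and SD (n = 3), blue for PEX genes and orange for oxidation genes, and the dotted line parts the processing sets; CTA1 stands at 6.82 to 6.89 in bna4 and at 4.47 or below on every other array.

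UME1 encodes a partner of the histone deacetylase Rpd3. In the ume1 deletion against Htt103Q, both of the first set, 2 of 24 PEX genes and 0 of 10 oxidation genes were higher, 0 members were lower, and 5.41% of the members' probe sets were called against 2.60% of all (1.60% higher). At an unadjusted p under 0.05 there were 7 PEX and 5 oxidation probe sets, 12 of 37, against 13.4% of all. PEX4, the ubiquitin-conjugating enzyme that recycles Pex5, had 5.34, 5.25 and 5.05 in Htt103Q and 6.12, 5.62 and 5.64 in ume1. The groups were apart, ume1 array 1 was the highest, and the change was 0.58 ± 0.134 (adjusted p = 0.0477). PEX17, a docking subunit, had 5.23, 5.32 and 5.38 in Htt103Q and 5.85, 5.65 and 5.66 in ume1, with 0.41 ± 0.0934 (0.0464). Omitting any single array of these groups took both out of the calls (0.0538 to 0.200 for PEX4, 0.0714 to 0.157 for PEX17).

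Several oxidation genes had ume1 arrays apart from Htt103Q without passing. FOX2 had 7.05, 7.07 and 6.83 in Htt103Q and 7.44, 7.28 and 7.35 in ume1, with 0.38 (adjusted p = 0.150). PXA1 had 0.52 (0.217) and PXA2 0.44 (0.125), both with arrays apart. SPS19 had 6.53, 6.81 and 6.58 in Htt103Q and 6.42, 5.52 and 5.82 in ume1, in the other direction at −0.72 (0.111). Without ume1 array 1, which was the highest of that group, SPS19 stood at −0.97 and passed (0.0126). The median change was 0.30 over the 10 oxidation genes and 0.36 over their 13 probe sets, against 0.00 for both the PEX genes and all probe sets. Arrays did not overlap for 9 members' probe sets that were higher and 3 that were lower, 32.4%, and for 20.4% of all (10.6% higher and 9.87% lower).

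Against Htt25Q, with the same ume1 arrays, 2 members were higher and 0 lower, and 7.86% of all probe sets were called (4.18% higher, 3.68% lower). Unadjusted, 14 of 37 had p under 0.05, against 23.5% of all, and 7 were apart higher and 5 lower, against 21.4% (9.98% and 11.4%). PEX11 had 8.60, 8.48 and 8.34 in Htt25Q, 8.75, 8.68 and 8.41 in Htt103Q, and 9.26, 9.21 and 9.0 in ume1. Every ume1 array lay above the other 6, and the rise was 1.60-fold against Htt25Q, or 0.68 ± 0.129 (adjusted p = 0.00926), and 0.54 ± 0.129 (0.0544) against Htt103Q. PXA1 had 4.42, 3.94 and 3.83 in Htt25Q and 4.71, 4.49 and 5.10 in ume1, with 0.71 ± 0.183 (0.0394). PXA1 did not pass without Htt25Q array 2 or 3 or ume1 array 1 or 3 (0.0869 to 0.0952). POT1 had 4.10, 3.95 and 3.85 in Htt25Q, and its rise of 0.75 in ume1 did not pass (0.0669). The count of members called was 4 without Htt25Q array 1, 1 without Htt25Q array 2 or 3, and 5 without both Htt25Q array 1 and ume1 array 1.

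Htt103Q against Htt25Q asks what the longer glutamine tract changes. Of the 34 genes only ECI1 was called, lower, and 0 were higher, which makes 2.70% of the members' probe sets against 4.44% of all (2.06% higher, 2.38% lower). Of the PEX genes 0 passed and 2, PEX4 and PEX28, had an unadjusted p under 0.05; over all members it was 4 of 37, against 17.3% of all probe sets. ECI1 (chromosome XII, 706198 to 707040) had 6.15, 5.93 and 5.99 in Htt25Q and 5.73, 5.51 and 5.35 in Htt103Q. The groups did not overlap, and the change was −0.49 ± 0.0990 (adjusted p = 0.0188). It did not pass without Htt103Q array 2 (0.0752) or 3 (0.0703), nor in deposited values of the first set alone.

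Among the other 33 genes PEX28 came nearest, with 5.93, 5.81 and 5.95 in Htt25Q and 5.48, 5.31 and 5.75 in Htt103Q (−0.38 ± 0.109, adjusted p = 0.0812). PEX21 had the largest difference among the PEX genes, with 5.47, 5.28 and 6.20 in Htt25Q and 4.91, 4.98 and 4.96 in Htt103Q. The arrays were apart, and the difference of −0.70 had an interval of −1.50 to 0.09. PEX5 had 6.41, 6.57 and 6.57 in Htt25Q and 6.45, 6.54 and 6.56 in Htt103Q, a difference of 0.00 with a 95% interval of −0.13 to 0.14. PEX7 had 6.16, 6.81 and 6.85 in Htt25Q and 6.45, 7.34 and 7.16 in Htt103Q, overlapping, with an interval of −0.20 to 0.96. Of the POX1 probe sets, 1 read 5.24, 3.11 and 3.27 in Htt25Q and 2.58, 3.32 and 3.15 in Htt103Q, where Htt25Q array 1 alone was high. Its difference of −0.86 had an interval of −1.87 to 0.15, and the other 3 probe sets had −0.28 to 0.22. Of the 36 probe sets not called, 34 had intervals within 1 log2 unit of 0, a 2-fold change, and 17 within 0.5. Medians were −0.02 for PEX genes and 0.02 over the 10 oxidation genes, against 0.00 for all probe sets. Arrays were apart for 7 members' probe sets, all lower in Htt103Q, which is 18.9%, as it was for all probe sets (9.04% higher and 9.91% lower).

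By role, the import receptors PEX5 and PEX7 had −0.24 to −0.06 in ume1 against Htt103Q, the docking genes −0.23 to 0.41, and the membrane assembly genes PEX3 and PEX19 0.30 and −0.51. The proliferation genes had −0.52 to 0.54 and the genes of size and number −0.33 to 0.68. In Htt103Q against Htt25Q the same roles had 0.00 to 0.38, −0.24 to 0.03, −0.17 and 0.09, 0.03 to 0.23, and −0.38 to 0.29. In ume1 against Htt103Q the ubiquitin ligases PEX2 and PEX10 had 0.19 and 0.26 and the transporters PXA1 and PXA2 0.52 and 0.44, none of them called.

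**Figure D3:**
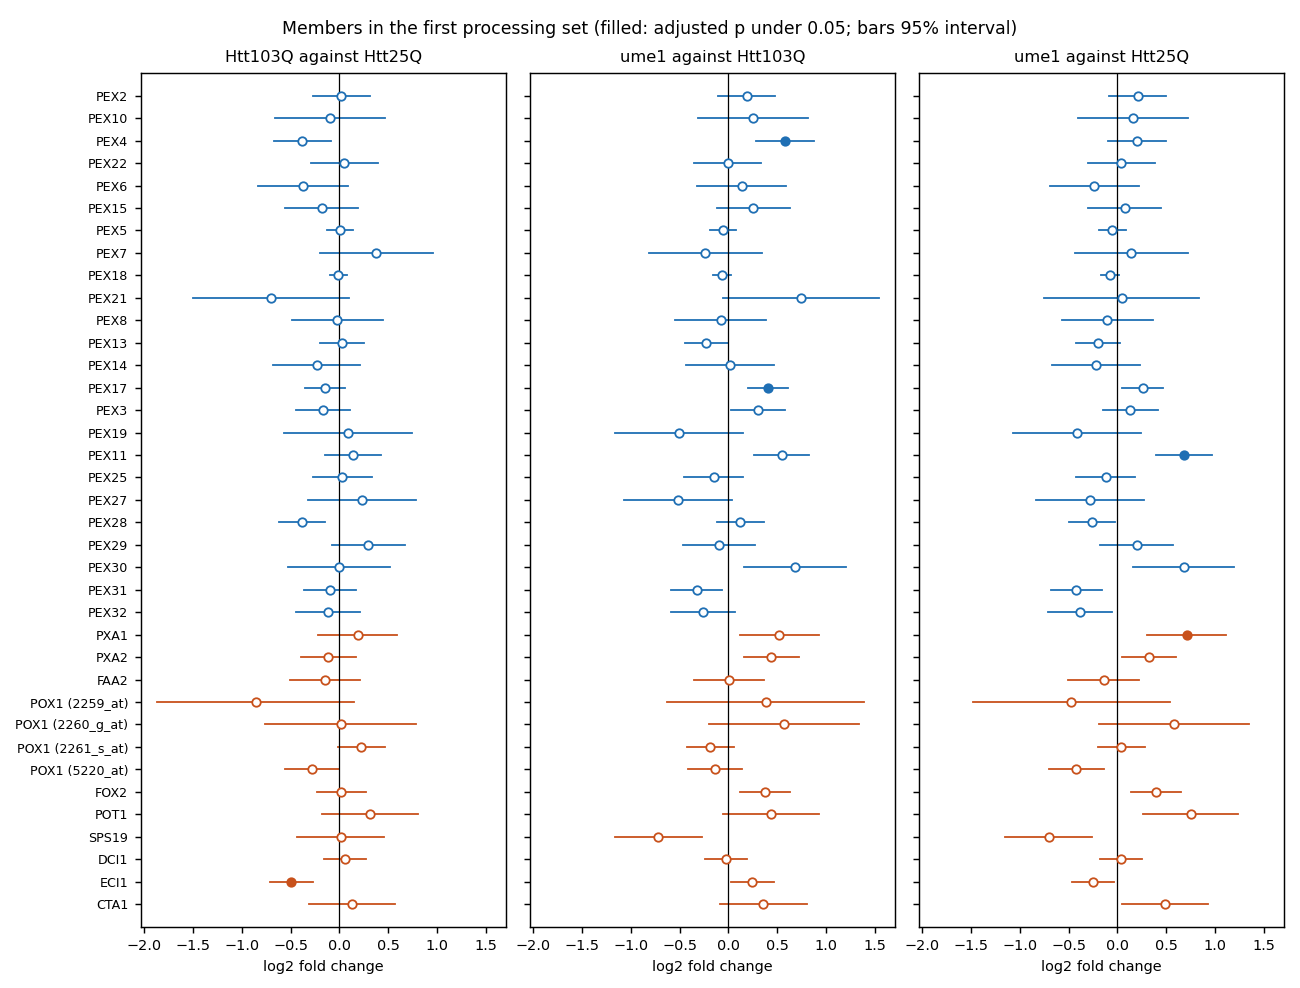
Log2 fold change (x axis) of the members' 37 probe sets in the 3 comparisons of the first processing set, which share arrays with each other. Points are differences of group means (n = 3 each), bars are 95% intervals, blue marks PEX and orange oxidation genes, and filled points have an adjusted p under 0.05: ECI1 on the left, PEX4 and PEX17 in the middle, PEX11 and PXA1 on the right.

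Some related genes had unlike values, and others went the same way. PXA1 and PXA2 went together in ume1 against Htt103Q (0.52 and 0.44) and in mbf1 against bna4 (−0.51 and −0.85). Of these changes only that of PXA2 in mbf1 against bna4 was called. In Htt103Q against Htt25Q they had opposite signs (0.19 and −0.11), neither called. PEX25 was higher in mbf1 than in bna4 while PEX27 did not pass. In ume1 against Htt103Q both were negative (−0.15 and −0.52) and neither was called. PEX30 of the endoplasmic reticulum had ume1 arrays of 7.44, 7.70 and 7.54 against 6.88, 6.92 and 6.85 in Htt103Q (0.68 ± 0.237, adjusted p = 0.212). It passed only in fits on the first set or on these groups alone (limma adjusted p down to 0.018). Its relative PEX31 had −0.33 (0.240), apart in the other direction. PEX28 had −0.38 and PEX29 0.29 in Htt103Q against Htt25Q, neither called. The differences between relatives were not tested.

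Set beside Htt103Q across the processing sets, the members had a median of −0.07 in bna4 and −0.08 in mbf1 for PEX genes, and the medians were 0.35 for each in deposited values, against 0.05 and 0.11 for all probe sets there. The oxidation medians were −0.02 and −0.12, and 0.39 and 0.12 in deposited values. Single genes spanned a wide range, from −1.01 for POT1 to 3.19 for CTA1 in bna4, and from −2.01 for POT1 to 1.80 for PEX21 in mbf1. In deposited values POT1 stood at −0.22 in bna4, where a POX1 probe set was lowest at −0.45 and CTA1 highest at 3.80, and the range in mbf1 was −1.54 for POT1 to 2.29 for PEX21. ECI1 stood 1.3 higher in bna4 and 1.32 in mbf1, and PEX28 stood 1.48 and 1.07 higher. These values are a description, since strain and processing cannot be told apart.

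The regulators and other genes of the pathway were counted from a list of 36, of which 34 were measured here. Not all of them act in the peroxisome, CRC1 being a carrier of mitochondria. The list was chosen with earlier results of these data known. In mbf1 against bna4 1 was higher and 5 were lower, 17.6% of the 34 against 10.5% of all probe sets (5.74% higher and 4.81% lower). PIP2, the partner of Oaf1 at oleate response elements, had 3.88, 4.35 and 4.47 in bna4 and 5.69, 5.65 and 5.23 in mbf1, with no overlap. It was higher in mbf1 than in bna4 by 1.29 ± 0.183 (adjusted p = 0.0011). Its means in the first set were 5.76 in Htt25Q, 5.85 in Htt103Q and 5.70 in ume1, nearer to mbf1 than to bna4. Strain and processing set cannot be told apart there. In mbf1 against bna4, OAF1 (0.31), OAF3 (0.27), ADR1 (0.10) and the kinase SNF1 (0.16) did not pass. The lower genes were the peroxisomal isocitrate dehydrogenase IDP3 (−0.75, 0.00206), the carnitine acetyltransferases CAT2 (−0.66, 0.0014) and YAT2 (−1.92, 0.00875), the carnitine carrier CRC1 (−0.75, 0.00452) and the peroxisomal citrate synthase CIT2 (−1.70, 0.0181). YAT2 and CRC1 did not pass in deposited values of the second set or with only these groups fitted (adjusted p up to 0.0564 and 0.0636). CIT2 did not pass in those fits or without any 1 of the bna4 arrays (up to 0.109), and its mbf1 array 3 (9.22) lay below the other mbf1 arrays (11.0 and 10.6). YAT2 too was lowest on mbf1 array 3, with 6.93, 6.5 and 5.5 on the mbf1 arrays.

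In ume1 against Htt103Q 3 of the 34 were higher and 1 was lower, 11.8% against 2.60% of all probe sets (1.60% higher). CAT2, which makes acetylcarnitine so that acetyl units can leave the peroxisome, had 6.08, 6.19 and 5.99 in Htt103Q and 7.39, 7.08 and 7.43 in ume1. It rose by 1.21 ± 0.0985 (adjusted p = 7.89e-05), and CRC1, which takes acetylcarnitine into mitochondria, by 1.13 ± 0.135 (0.00117). The matrix protein gene PXP1 rose by 0.90 (0.049), and INP1, which holds peroxisomes in the mother cell, fell by 1.08 on the log2 scale (0.0348). INP1 did not pass without any 1 of the Htt103Q arrays or ume1 array 2, and PXP1 did not without Htt103Q array 2 or 3 or any ume1 array. CIT2 had 1.55 (0.0696), with arrays apart.

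Against Htt25Q, CAT2 (1.22), CRC1 (1.29), PCS60 (1.2) and PXP1 (1.15) were higher in ume1 and the pyrophosphatase gene NPY1 (−0.75) lower, 14.7% of the 34 against 7.86% of all probe sets. NPY1 did not pass without ume1 array 1 or 2, in deposited values of the first set or with only these groups fitted (adjusted p up to 0.292). PXP1 failed in those last 2 fits (up to 0.163) and PCS60 with only these groups fitted (0.081). OAF1, PIP2, OAF3, ADR1 and SNF1 passed in none of the 3 comparisons of the first set. In Htt103Q against Htt25Q 2 of the 34 were higher and 0 lower, 5.88% against 4.44% of all probe sets. PCS60, an acyl-CoA synthetase family member of the peroxisome, rose by 0.80 ± 0.125 (adjusted p = 0.00497), but did not pass in deposited values of the first set or with only these groups fitted (up to 0.137). INP1 rose by 0.95 (0.0449), which did not hold without Htt25Q array 1 or 2 or any Htt103Q array. ADR1 had 6.04, 8.02 and 7.65 in Htt25Q and 7.84, 8.15 and 8.46 in Htt103Q, where array 1 of Htt25Q was low, and the difference of 0.91 did not pass (0.271).

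**Figure D4:**
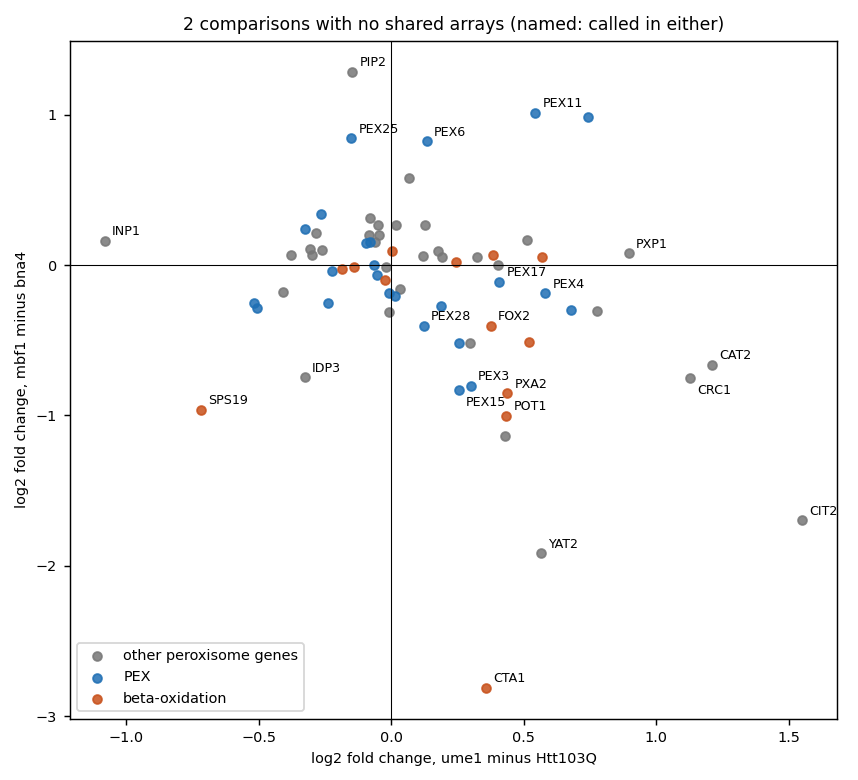
Log2 fold change of ume1 against Htt103Q (x axis) and of mbf1 against bna4 (y axis), comparisons that share no arrays. Members are blue (PEX) and orange (oxidation). Other genes of the pathway are grey and labelled other peroxisome genes, though not all act there. Each point is 1 probe set. Names mark genes called in either; CAT2 and CRC1 were called higher on the x axis (1.21 and 1.13) and lower on the y axis (−0.66 and −0.75), and no member was called in both.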

How the data were processed

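RNA was measured in 15 samples of 5 groups of 3. The deposited table gives log2 values, 1 summarised signal per probe set and array; the sources used here do not give the method of summary and normalization. Of 9335 probe sets, 60 controls were set aside for checks. Gene names came from the platform annotation by symbol, with 6504 probe sets matching 1 gene, 328 several and 2443 none, and coordinates from RefSeq R64.

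Deposited array medians differed by more than 0.1, so values were quantile normalized over all arrays, which removes any overall shift. limma 3.58.1 (R 4.3.3) fitted a mean per group on the 15 arrays together, moderated the variances (eBayes, two-sided) and Benjamini-Hochberg adjustment over all 9275 probe sets. Intervals are 95% and not adjusted. A probe set was at the floor in a group if all 3 deposited values lay within 0.1 of the lowest. The members and lists were chosen with earlier results of these data known. All 34 members are counted, some of them only by range or in the figures. Values per array are given for those called, in the comparison where they were called. They are given on every array for POT1, CTA1 and PEX11, and in part for POX1, FOX2, PEX5 and PEX7. PEX21 and PEX30 were added after their values were seen. Of 36 other genes of the pathway, those called and the regulators are named. The 4 comparisons were those within a processing set, and 3 of them share arrays. With 200 probe sets changed in simulated data for mbf1 against bna4, 66% of changes of 1 and 89% of changes of 2 log2 units were recovered, with 13 false calls. The simulated noise was normal, independent and equal in spread in every group. Real groups differed, with a median SD over all probe sets of 0.0864 in bna4 and 0.248 in Htt25Q, so these shares may not hold for the real arrays. No 2 arrays held identical values. The number of arrays limits the precision.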

Additional observations from a re-analysis of the deposited data

How the results depend on the processing

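In mbf1 against bna4, 5 of the 11 called members (CTA1, PEX11, PEX3, PXA2 and SPS19) passed under all 13 alternatives, which were other normalizations, fits on fewer arrays, a filter on dim probe sets, the replicate block and each array left out. The count was 7 to 9 with 1 array left out, the lowest without bna4 array 2. PEX15 and PEX25 did not pass in the fits on the second set or on the groups alone (adjusted p up to 0.126 and 0.0642). PEX21 and PEX31, not called in the main fit, passed in those fits (adjusted p down to 0.0176 and 0.00455). Medians there were −0.073 for PEX and −0.066 for oxidation probe sets in deposited values, −0.10 for PEX when median centred, −0.15 for oxidation with quantiles within the set, −0.19 and −0.68 without dim probe sets, and −0.46 for oxidation by gene. With 1 array left out they were −0.14 to −0.070 (PEX) and −0.12 to −0.07 (oxidation).

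No call in the first set passed under every alternative. For Htt103Q against Htt25Q the count was 0 in deposited values or quantiles of the first set alone and with only the groups compared, where 134, 127 and 32 of all probe sets were called against 412, and 0 to 1 with 1 array left out. For ume1 against Htt103Q it was 1 in each of those 3 fits (46, 56 and 121 of all against 241). The member called there was PEX30 (limma adjusted p down to 0.018), while PEX4 and PEX17 were lost. The count was 4 when median centred, 0 without dim probe sets and 0 to 3 with 1 array left out. Medians with 1 array left out were −0.034 to 0.076 for PEX and 0.17 to 0.37 for oxidation. For ume1 against Htt25Q it was 4 in deposited values of the first set and 6 of all arrays, 5 when median centred, 4 without dim probe sets, 0 with only the groups compared (252, 787, 859, 743 and 75 of all against 729), 5 without both doubtful arrays and 1 to 4 with 1 left out. Its oxidation median was 0.12 in deposited values, 0.36 without dim probe sets, 0.18 by gene and −0.052 to 0.21 with 1 array left out, and its PEX median −0.07 to 0.01. In Htt103Q against Htt25Q medians were −0.07 to 0.03 and −0.03 to 0.05. The cause of these moves was not tested. Residuals of same-numbered arrays correlated at −0.169 to 0.434. The highest values, 0.340 and 0.434, were for Htt103Q with ume1 at numbers 1 and 3, and the lowest was for the same groups at number 2. Differently numbered arrays were not compared, so pairing by replicate number was not decided. The replicate block gave 2 members in Htt103Q against Htt25Q with PEX4 added (adjusted p = 0.0434), and moved no other count by more than 1.5 times. It did change calls: PEX17 was lost (0.07) and PEX11 gained (0.0121) in ume1 against Htt103Q, PXA1 was lost (0.0655) and POT1 (0.0312) and 1 POX1 probe set (0.0472) gained in ume1 against Htt25Q, and FOX2 was lost (0.084) in mbf1 against bna4. No called member changed sign. Signals near the lowest value limit POX1, PEX18 and DCI1.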
